A study of Schizosaccharomyces pombe with 12 samples.

Results

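Transcripts of the meiotic cohesin subunits Rec8 and Rec11 and of the centromeric cohesin factors Moa1 and Sgo1 were followed in vegetative fission yeast (Schizosaccharomyces pombe) arrested in G1, ahead of DNA replication. The 4 genes, rec8, rec11, moa1 and sgo1, were chosen by symbol, and each was read by 1 probe set of an oligonucleotide array on which 2899 S. pombe genes were measured. All cells were h- and carried ura4+-pREP2-res1, a plasmid that makes a C-terminal fragment of Res1 in the absence of thiamine. The fragment binds the transcription factor Cdc10 and arrests the cells, whose growth at 25 °C ceased once they had doubled 7 times in medium lacking thiamine. The strains were mis4+ (wild type) or mis4-367, a thermosensitive mutation in the gene for Mis4, which loads cohesin onto DNA. Each strain was grown as 3 independent cultures, with RNA taken from arrested cells at 25 °C and again 2 h after a shift to 37 °C. The labels do not say whether a replicate number marks 1 culture at both temperatures. This gave 12 arrays in 4 groups of 3: mis4+ at 25 °C, mis4+ at 37 °C, mis4-367 at 25 °C and mis4-367 at 37 °C. No group was kept at 25 °C for a further 2 h. In every change with the shift, the higher temperature and the added time in arrest therefore cannot be told apart. The purpose of the series was to find transcripts that need cohesin. Cells of a single mating type cannot mate with each other, so these cultures are a vegetative and not a meiotic model of the 4 genes.

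Cohesin is a ring of 2 Smc proteins closed by a kleisin, to which a further large subunit binds. In meiosis Rec8 takes the place of the mitotic kleisin Rad21, and Rec11 takes the place of the mitotic subunit Psc3 along chromosome arms, where Rec8-Rec11 cohesin is needed for recombination. Moa1 acts at the core centromere in meiosis I so that sister kinetochores face the same pole. The shugoshin Sgo1 keeps centromeric Rec8 from being cut by separase in meiosis I, by recruiting protein phosphatase 2A. In growing cells rec8 mRNA is among the transcripts that the RNA-binding protein Mmi1 marks for destruction, and premeiotic transcription of rec8 and rec11 is known to involve MBF, the complex of Cdc10 and Res proteins.

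Values are intensities on a linear scale, and changes are differences of group means on the log2 scale with their standard error (SE). A gene is said to have risen or fallen where the limma fit over all 12 arrays gave an adjusted p under 0.05 over all 2899 genes. The probe sets of another yeast species on the same array gave a background level: 95% of them averaged at most 10.7 in intensity. Median intensities over the S. pombe genes were 394 to 431. Replicate 3 of mis4+ at 37 °C stood apart: over all genes, the SD of its log2 differences from the mean of its group's remaining arrays was 0.202, where the 11 further arrays had 0.0654 to 0.134. The mis4 transcript did not pass between the strains: its log2 difference was -0.07 at 37 °C (adjusted p = 0.54), where the arrays overlapped, and -0.13 at 25 °C (adjusted p = 0.525), where all mis4-367 arrays lay below all mis4+ arrays. A thermosensitive protein need not change its mRNA, so mis4 is no check of the labels. Fewer cells with a transcript and less of it per cell cannot be told apart in these bulk samples.

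The arm cohesin gene rec11 was above background at 37 °C in both strains, whereas before the shift it was below background on 5 of 6 arrays. In mis4+ cells at 25 °C the rec11 intensity was 9.98, 9.61 and 8.65 on the 3 arrays, none of them above background. At 37 °C it was 17.4, 17.4 and 15.2. In mis4-367 cells it was 8.23, 8.65 and 11.7 at 25 °C, with 1 of 3 arrays above background, and 14.0, 16.8 and 14.8 at 37 °C. In each strain every array at 37 °C lay above every array at 25 °C. Across all genes 36.5% showed such a separation upward in mis4+ and 39.7% in mis4-367.

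The rise of rec11 was called in both strains. In mis4+ the log2 change was 0.82 ± 0.12 (SE, n = 3 arrays per group, limma adjusted p = 0.000106). With its arrays at 25 °C set to the background level, rec11 was 1.55-fold higher at 37 °C. In mis4-367 the log2 change was 0.69 ± 0.12 (limma adjusted p = 0.000379). With 1 array left out it ran from 0.59 to 0.85, and was highest without replicate 3 at 25 °C. In mis4-367 rec11 was 1.37-fold higher when each array at 25 °C was set to the higher of its own value and the background level. Both folds are point estimates and carry sampling error. Calls are common in this comparison. In mis4+ 55.3% of all genes were called, 33.5% as higher and 21.8% as lower at 37 °C, and in mis4-367 56.4%, 33.4% as higher and 23% as lower. Of the 4 meiotic cohesin genes 1 rose in mis4+ and 2 in mis4-367. The probe sets of the other yeast, which show how dim signals move, had changes of -0.16 to 0.12 between the 5th and the 95th percentile in mis4+ and of -0.20 to 0.11 in mis4-367. Quantile normalization over the S. pombe genes alone lowered the rec11 change to 0.37 in mis4+ and 0.34 in mis4-367, with adjusted p of 0.0221 and 0.0316.

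**Figure D1:**
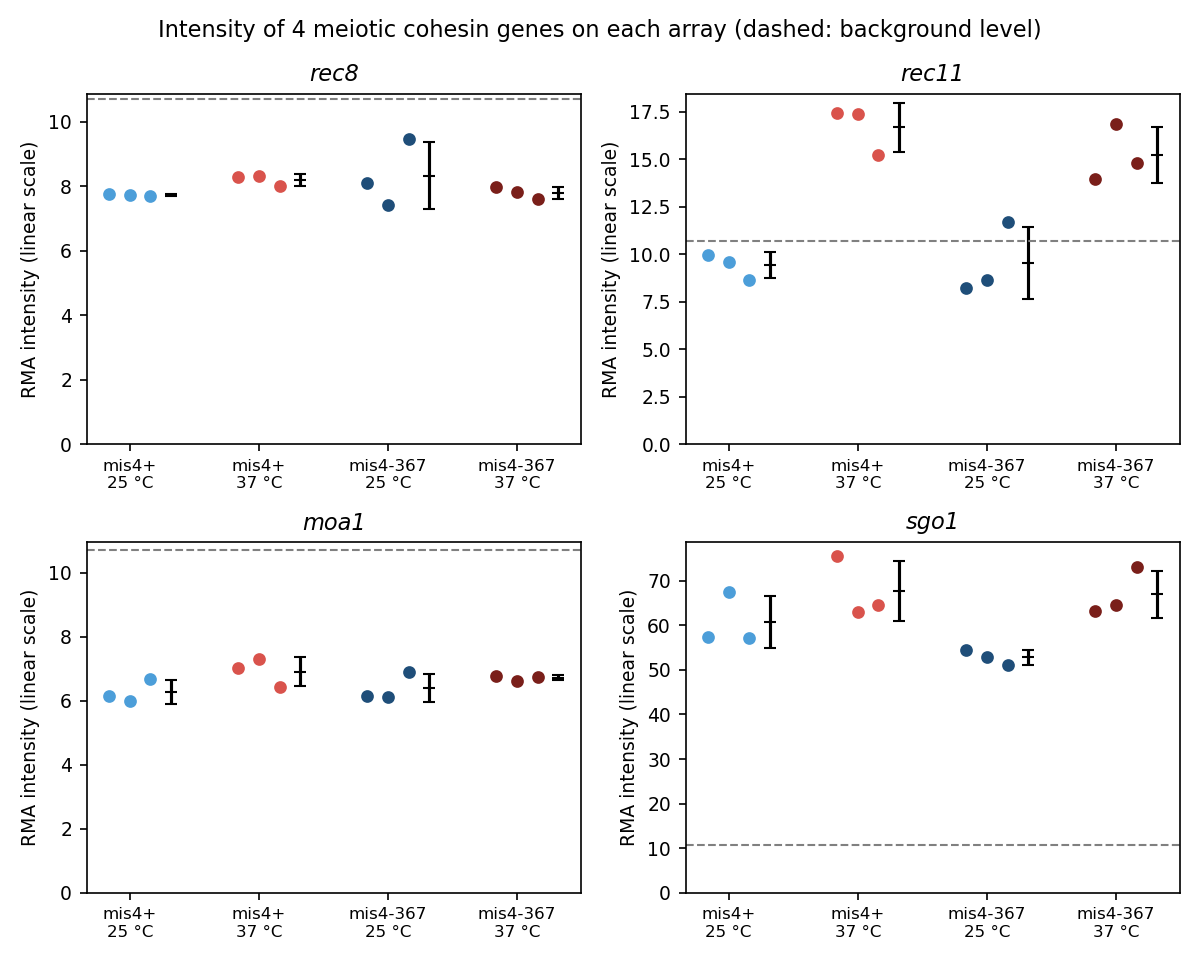
Intensity (linear scale, y axis from 0) of rec8, rec11, moa1 and sgo1 on each of the 12 arrays, by strain and temperature (x axis). Points are arrays in the order of replicates 1 to 3, black marks are the mean ± SD (n = 3), and the dashed line is the background level of 10.7, which rec11 passes on all 6 arrays at 37 °C and rec8 and moa1 pass on none.

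The kleisin gene rec8 stayed below the background level on all 12 arrays. Its intensity was 7.78, 7.74 and 7.71 in mis4+ at 25 °C and 8.28, 8.33 and 8.0 at 37 °C. In mis4-367 it was 8.12, 7.41 and 9.47 at 25 °C and 7.97, 7.83 and 7.61 at 37 °C. The groups differed little: the arrays of mis4+ at 37 °C lay above those of mis4+ at 25 °C and above those of mis4-367 at 37 °C, and in mis4-367 the 2 temperatures overlapped. Over all genes 36.5% showed the first of these separations and 17.4% the second. The shift changed rec8 by 0.08 ± 0.07 (SE) in mis4+ (adjusted p = 0.329) and by -0.09 ± 0.07 in mis4-367 (adjusted p = 0.311). Below background such values are bounds on a level and not a measure of it. In mis4-367 the value rested on replicate 3 at 25 °C: without that array the change was 0.0086 (adjusted p = 0.906), and without replicate 2 at 25 °C it was -0.17 (adjusted p = 0.0459). After quantile normalization it was -0.31 (adjusted p = 0.00556), while the value in mis4+ turned to -0.069 (adjusted p = 0.487).

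The moa1 signal was also below background on all 12 arrays. In mis4+ it was 6.14, 5.99 and 6.69 at 25 °C and 7.01, 7.29 and 6.41 at 37 °C. In mis4-367 it was 6.16, 6.13 and 6.88 at 25 °C and 6.78, 6.62 and 6.74 at 37 °C. The temperatures overlapped in both strains. The changes with the shift were 0.14 ± 0.06 (SE, adjusted p = 0.0839) in mis4+ and 0.07 ± 0.06 (adjusted p = 0.344) in mis4-367. The value in mis4+ passed the threshold without replicate 3 at 25 °C (0.18, adjusted p = 0.042) or without replicate 3 at 37 °C (0.19, adjusted p = 0.0182), and was 0 after quantile normalization. In replicate 3 of the mis4-367 cultures before the shift, rec8, rec11 and moa1 were each the highest of their group and sgo1 the lowest.

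The shugoshin gene sgo1 was above background on every array, and it rose with the shift in mis4-367. In that strain its intensity was 54.5, 52.9 and 51.2 at 25 °C and 63.3, 64.5 and 73.1 at 37 °C, with no overlap. The log2 change of sgo1 was 0.34 ± 0.08 (SE, n = 3 arrays per group), or 1.26-fold (limma adjusted p = 0.00443). Over all genes 39.7% separated upward in this way in mis4-367, and 33.4% were called as higher. In mis4+ the values were 57.3, 67.4 and 57.2 at 25 °C and 75.4, 63.0 and 64.5 at 37 °C. There replicate 2 at 25 °C lay among the arrays at 37 °C, and the change of 0.16 ± 0.08 did not pass (adjusted p = 0.13). Leaving that array out gave 0.24 (adjusted p = 0.0381), and leaving out replicate 1 at 37 °C gave 0.077 (adjusted p = 0.448). The strains' responses differed by 0.18 ± 0.12 (95% interval -0.08 to 0.44, adjusted p = 0.824), so a difference between them was not shown. The rise in mis4-367 kept its call without each of its 6 arrays in turn, with adjusted p from 0.00594 to 0.023. Quantile normalization ended it (0.033, adjusted p = 0.773) and turned the value in mis4+ to -0.14 (adjusted p = 0.206).

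Between the strains none of the 4 genes passed at either temperature. At 37 °C, the temperature that impairs mis4-367, 7.17% of all genes were called, 1.72% as higher and 5.45% as lower in mis4-367. There the mis4-367 minus mis4+ difference was -0.13 for rec11 (95% interval -0.40 to 0.13, adjusted p = 0.481). It was -0.07 for rec8 (-0.23 to 0.08, adjusted p = 0.519), -0.04 for moa1 (-0.18 to 0.10, adjusted p = 0.705) and -0.01 for sgo1 (-0.20 to 0.17, adjusted p = 0.926). The rec8 arrays of mis4-367 all lay below those of mis4+ at 37 °C, as did those of 17.4% of all genes. For rec11, moa1 and sgo1 the arrays of the strains overlapped at 37 °C. After quantile normalization the differences of rec11, moa1 and sgo1 at 37 °C were above 0, at 0.045, 0.086 and 0.17, with adjusted p of at least 0.228.

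At 25 °C, where 0.621% of all genes were called (11.4% at an unadjusted p under 0.05), sgo1 had the widest strain difference of the 4 genes. All 3 arrays of mis4-367 lay below all 3 of mis4+, a separation that 23.9% of all genes showed. The difference was -0.19 ± 0.08 (SE, 95% interval -0.38 to -0.01, unadjusted p = 0.0391, adjusted p = 0.403 by limma), and it was 0.0043 after quantile normalization. For rec8 the difference at 25 °C was 0.10 (95% interval -0.06 to 0.25), for moa1 0.03 (-0.11 to 0.16) and for rec11 0.0022 (-0.26 to 0.26), and their arrays overlapped. The difference between the temperature responses passed for none of the 4 genes, and 0% of all genes were called in that comparison by limma (4.86% at an unadjusted p under 0.05). It was -0.17 for rec8 (95% interval -0.39 to 0.05), -0.14 for rec11 (-0.51 to 0.23) and -0.06 for moa1 (-0.26 to 0.13). Without replicate 3 of mis4-367 at 25 °C that of rec11 was 0.022 (limma adjusted p = 0.987).

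By mean level, the groups of rec11 were ordered mis4+ at 37 °C, mis4-367 at 37 °C, mis4-367 at 25 °C and mis4+ at 25 °C, and only the middle step, between the temperatures, had no overlap of arrays. For sgo1 the groups at 37 °C were followed by mis4+ and then mis4-367 at 25 °C, and only the last step was free of overlap. The groups of rec8 and moa1, all below background, have no order of levels.

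The vegetative counterparts of these genes behaved as follows on the same arrays. The mitotic kleisin gene rad21, the counterpart of rec8, did not pass in any comparison, and its shift changes were -0.09 in mis4+ (adjusted p = 0.0903) and -0.01 in mis4-367 (adjusted p = 0.813). The counterpart of rec11, psc3, had 0.08 (adjusted p = 0.304) and 0.15 (adjusted p = 0.0673). In mis4-367 the psc3 arrays did not overlap between the temperatures, and without replicate 1 at 25 °C the change was 0.19 and passed (adjusted p = 0.0467). The second shugoshin gene, sgo2, whose product works at centromeres in mitosis and also in meiosis, rose in both strains, by 0.44 ± 0.08 in mis4+ (adjusted p = 0.000523) and 0.33 ± 0.08 in mis4-367 (adjusted p = 0.00359).

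Ratios of these genes to their counterparts within an array were tested by relabelling arrays within strains or within temperatures, a test added after the values had been seen. Across both strains the log2 ratio of rec11 to psc3 was 0.64 higher at 37 °C, with a two-sided exact permutation p = 0.01 where the smallest possible is 0.005. With rec11 set to the background level on the 5 arrays below it, the ratio was 1.35-fold higher (exact permutation p = 0.01). Adjusted over the 6 ratio tests, this exact permutation test did not pass (p = 0.06). The rec11 arrays had already separated by temperature in each strain, so the test adds no independent support for the rise of rec11. The ratio of sgo1 to sgo2 changed by -0.13 with the shift (exact permutation p = 0.275, adjusted p = 0.708), and by -0.32 after quantile normalization (exact permutation p = 0.01). Between the strains it differed by -0.060 (exact permutation p = 0.59). The ratio of rec8 to rad21 has no measured numerator, since rec8 was below background throughout, and its tests, 2 of the 6, say nothing about rec8.

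**Figure D2:**
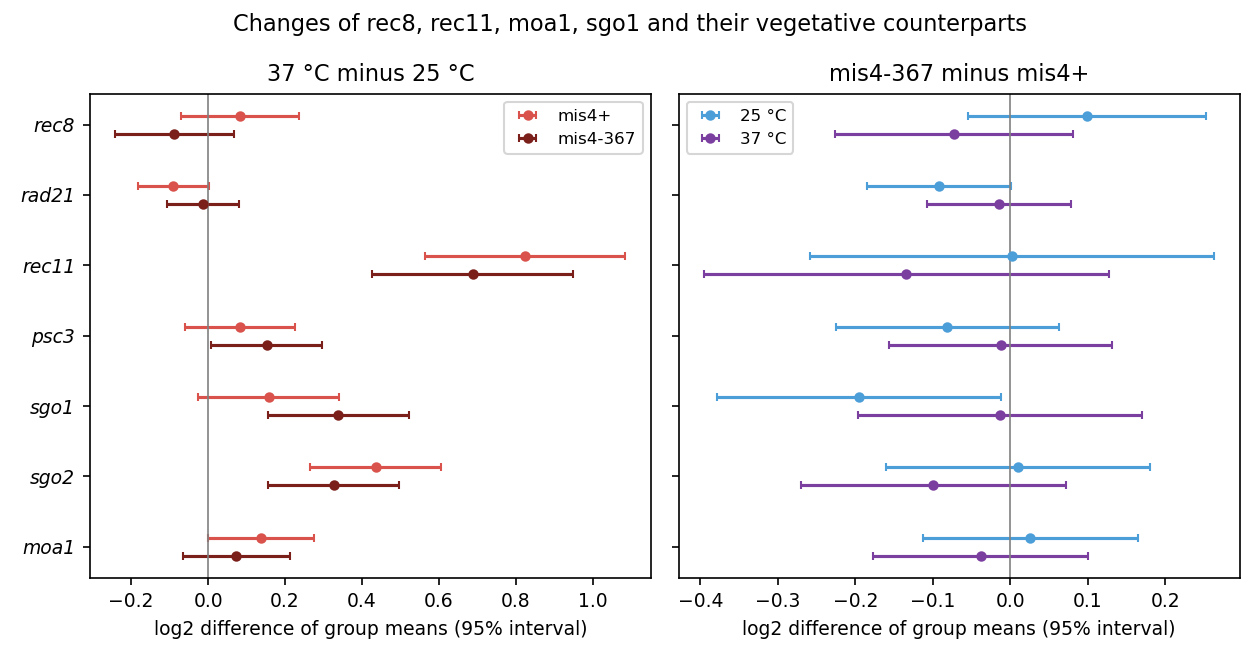
Log2 difference of group means with its 95% interval (x axis) for rec8, rec11, moa1, sgo1 and the vegetative counterparts rad21, psc3 and sgo2 (y axis), for the shift in each strain (left) and for mis4-367 minus mis4+ at each temperature (right). The intervals of rec11 lie right of 0 for both shifts, those of sgo2 do so as well, those of sgo1 and psc3 do so in mis4-367, and of the strain intervals only that of sgo1 at 25 °C leaves out 0, without passing after adjustment.

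Many genes that act with Rec8 and Rec11 in meiosis also rose with the shift. Of 16 measured genes of linear elements, the axial structures that assemble on Rec8-Rec11 cohesin, and of meiotic recombination, 12 rose and 1 fell in mis4+, and 11 rose and none fell in mis4-367, where 33.5% and 33.4% of all genes rose. Of these 16 genes, 14 were above background in at least 1 group; rec7, which fell in mis4+, and rec27, which rose there, were not. Their median shift change was 0.67 in mis4+ and 0.61 in mis4-367, against 0.043 and 0.036 over all genes. The largest rise among genes measured above background in both groups was that of hop1, a linear element component, at 2.62 ± 0.20 (SE) in mis4+ and 2.52 ± 0.20 in mis4-367, with limma adjusted p of 4.59e-07 and 5.46e-07. The linear element gene mug20 rose by 1.37 and 1.35. By contrast rec10, whose product binds Rec11 and starts linear elements, changed by -0.21 in mis4+ (adjusted p = 0.0711) and -0.20 in mis4-367 (adjusted p = 0.0816). The kinase genes hhp1 and hhp2 encode casein kinase 1, which phosphorylates Rec11 for that binding. Of these hhp1 fell, at -0.24 and -0.26 (adjusted p = 0.00232 and 0.00143), and hhp2 had 0.21 in mis4+ (adjusted p = 0.0405) and 0.19 in mis4-367 (adjusted p = 0.0535).

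**Figure D3:**
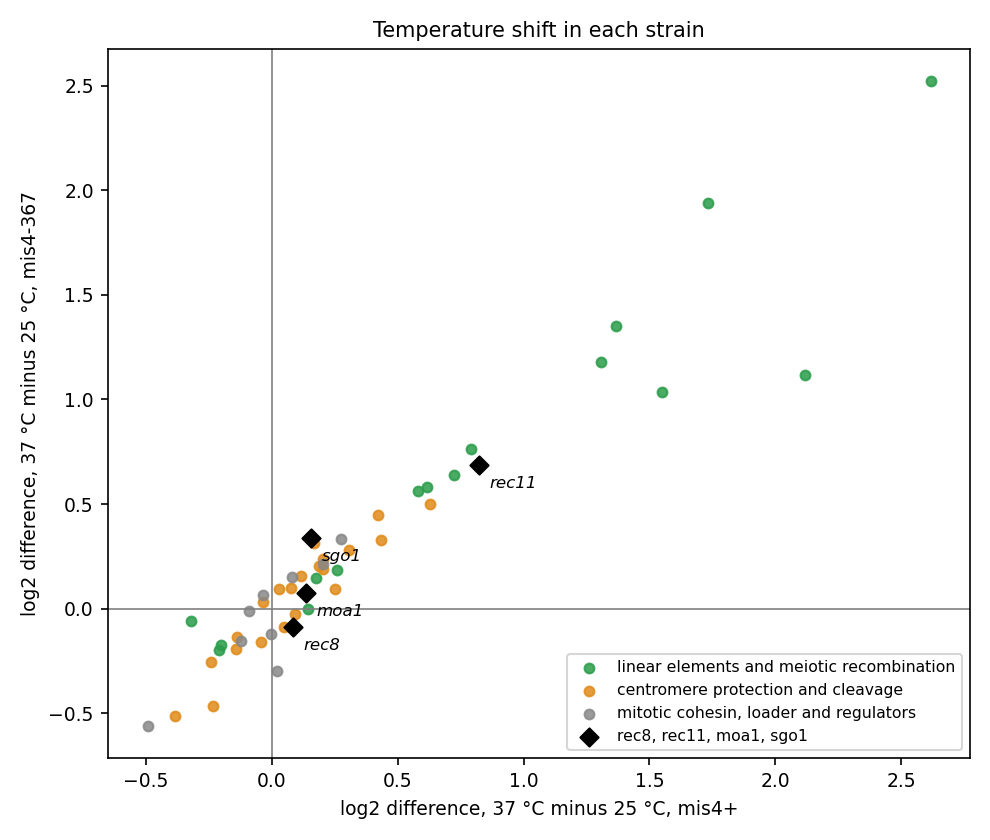
Log2 difference between 37 °C and 25 °C in mis4+ (x axis) and in mis4-367 (y axis), 1 point per gene. Black diamonds are rec8, rec11, moa1 and sgo1, and colours mark 3 lists of related genes; rec11 at 0.82 and 0.69 lies within the spread of the recombination genes, whose point farthest up and right is hop1 at 2.62 and 2.52.

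Around Sgo1 and Moa1, 21 genes of centromere protection and cohesin cleavage were measured, among them phosphatase, separase and kinetochore genes. With the shift 8 rose and 3 fell in mis4+, and 8 rose and 4 fell in mis4-367, at medians of 0.093 and 0.095 against 0.043 and 0.036 over all genes. Over all genes 33.5% rose and 21.8% fell in mis4+, and 33.4% rose and 23% fell in mis4-367, so these shares of the list are near the background. The largest rise of the list in each strain was that of hsk1, at 0.63 and 0.50. The phosphatase regulatory subunit gene par1 rose by 0.31 and 0.28 (adjusted p = 0.00056 and 0.00105), and the securin gene cut2 fell, at -0.38 and -0.51 (adjusted p = 0.000456 and 4.32e-05). The phosphatase genes did not move together. While paa1 rose by 0.12 and 0.16, par2 had -0.04 in mis4+ (limma adjusted p = 0.561) and fell in mis4-367, at -0.16 (adjusted p = 0.033). Neither ppa1 nor ppa2 passed in either strain. Of the 9 genes of mitotic cohesin, its loader and its regulators, 2 rose and 2 fell in mis4+, and 2 rose and 3 fell in mis4-367. The 4 calls in mis4+ came to 2 without replicate 1 or 2 at 25 °C or with only those 6 arrays fitted, and the 5 in mis4-367 to 3 without replicate 2 at either temperature.

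At 37 °C the strains differed in 6 of the 21 protection and cleavage genes, 5 of them lower in mis4-367, among them the anaphase activator gene slp1 at -0.50 (adjusted p = 0.00289). Over all genes 7.17% were called between the strains at 37 °C, 1.72% as higher and 5.45% as lower in mis4-367. The count of 6 came to 3 after re-centring or with a replicate block, to 2 after quantile normalization, and to 1 with only the 6 arrays at 37 °C fitted. Leaving out 1 array gave 1 (replicate 3 of mis4+ or 2 of mis4-367), 2 (replicate 1 of mis4+), 3 (replicate 1 or 3 of mis4-367) or 7 (replicate 2 of mis4+). None of the 9 mitotic cohesin genes passed, but 2 did without replicate 2 of mis4+. Of the recombination genes 3 were lower, rec10, dmc1 and meu13, and none of the 3 passed after quantile normalization or when the fit held only the arrays at 37 °C. Leaving out an array left 1 of them in 4 cases, replicate 1 or 3 of mis4+ and replicate 1 or 2 of mis4-367, and without replicate 2 of mis4+ the list had 5 calls. The linear element gene rec10 stood at -0.52 ± 0.09 (SE, limma adjusted p = 0.0125), and at 25 °C at -0.53 ± 0.09 (adjusted p = 0.0237). Its call at 37 °C held without each array in turn. At 25 °C it was lost without any 1 of the 3 arrays of mis4+ or without replicate 1 or 3 of mis4-367 (adjusted p from 0.0608 to 0.16 over the losses), and after quantile normalization it was -0.26 (adjusted p = 0.654). The meiotic recombination gene mcp7 had the widest strain difference of the list at 37 °C, -0.87 ± 0.27, which did not pass (adjusted p = 0.0692).

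**Figure D4:**
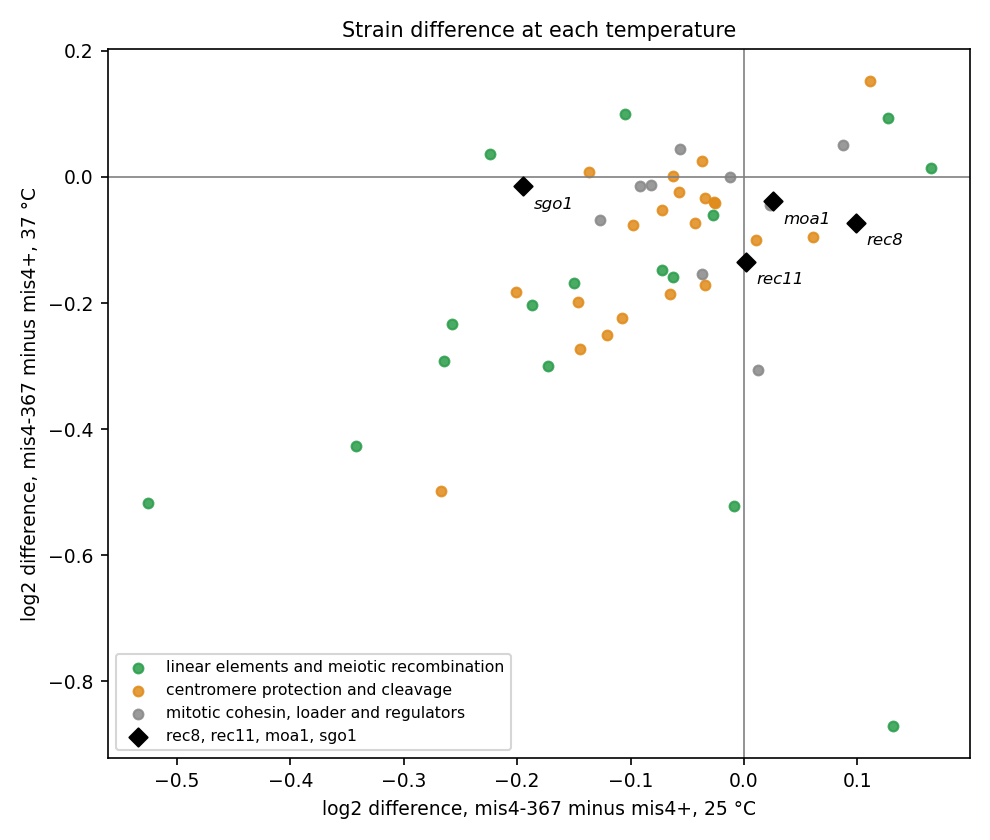
Log2 difference of mis4-367 minus mis4+ at 25 °C (x axis) and at 37 °C (y axis), 1 point per gene. Black diamonds are rec8, rec11, moa1 and sgo1, which lie between -0.19 and 0.10 at 25 °C and between -0.13 and -0.01 at 37 °C; the recombination gene farthest left is rec10 at -0.53 and -0.52, and the lowest is mcp7 at 0.13 and -0.87.

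Other transcripts that Mmi1 marks for destruction, as it does rec8, were read from 5 probe sets, of which 4 were above background in at least 1 group. In mis4+ 4 of the 5 rose with the shift and in mis4-367 2 did, at medians of 0.39 and 0.27. In mis4+ mei4, spo5 and num1 were below background at 25 °C. The 2 that rose in mis4-367 were num1, below background at both temperatures, and crs1, below it at 25 °C. Of the 4 that rose in mis4+, num1 alone still passed after quantile normalization, and spo5 and num1 did without replicate 1 at 25 °C. The transcript of mmi1 itself had -0.13 ± 0.06 in mis4+ (SE, adjusted p = 0.07) and fell by 0.33 in mis4-367 (adjusted p = 0.00038). Of 9 measured genes of meiotic entry and mRNA elimination, 4 rose and 2 fell in mis4+, and 5 rose and 3 fell in mis4-367. Of 13 genes of MBF and its targets 3 rose and 2 fell in mis4+, and 4 rose and 2 fell in mis4-367. Over all genes 33.5% and 33.4% rose, and 21.8% and 23% fell. After quantile normalization 8 of the 13 passed in mis4+. Among those that fell in mis4+ was res1, at -0.46 ± 0.09 (SE, limma adjusted p = 0.00118). All cells carried the plasmid that makes a Res1 fragment, and whether the res1 probe set also reads the plasmid transcript was not tested.

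Markers of cells outside G1 were read beside these genes, and ark1, plo1 and slp1 are each counted in 2 lists. All 11 measured markers were above background in each group, and their summed intensity was 4725 to 4989 in mis4+ at 25 °C, 4359 to 4812 in mis4+ at 37 °C, 4300.3 to 4456 in mis4-367 at 25 °C and 3871 to 4003 in mis4-367 at 37 °C. The brightest marker in each group was cdc13, which weighs most in these sums. At 25 °C none of the 11 passed between the strains, but all 11 had a difference below 0 in mis4-367. Their median there was -0.14, against -0.029 over all genes. At 37 °C 4 of the 11 were lower in mis4-367, as were 5.45% of all genes. That count of 4 was 2 without replicate 3 of mis4+ or replicate 1 or 3 of mis4-367. It was 1 without replicate 2 of mis4-367 or with only the 6 arrays at 37 °C fitted. With the shift 4 rose and 3 fell in mis4+, and 3 rose and 3 fell in mis4-367. These shares are near those of all genes, of which 33.5% rose and 21.8% fell in mis4+, and 33.4% rose and 23% fell in mis4-367. Of 9 mating genes 3 were lower in mis4-367 at 37 °C, against 5.45% of all genes. There the summed intensity of the 9 was 5500 to 5777 in mis4+ and 5161 to 5551 in mis4-367. The brightest of them, mfm2, weighs most in that sum, and its strain difference was 0.14 (limma adjusted p = 0.229). The part of either group of cells in the values of rec11 and sgo1 was not tested.

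The genes whose log2 values ran most like those of rec11 over the 12 arrays were mug4 (Pearson r = 0.961), otu1 (0.959) and gmh1 (0.956), among 2881 other genes above background in at least 1 group. For sgo1 they were vps54 (0.925), pof3 (0.92) and glo3 (0.919). The step between the temperatures, which many genes share, carries much of such a correlation: the 95th percentile of r over all genes was 0.908 for rec11 and 0.785 for sgo1. For the deviations of arrays from their group means, the closest to rec11 were cid12 (0.919), mug4 (0.882) and ypt71 (0.882), and the closest to sgo1 were cnt6 (0.969), ppt1 (0.931) and cys2 (0.883). The 95th percentile of r of the deviations was 0.549 for rec11 and 0.584 for sgo1, and the genes named are the highest of all those compared. The signals of rec8 and moa1, below background, came closest to ssa2 (0.574), mug9 (0.552) and ost4 (0.551) and to arp1 (0.817), rpt2 (0.798) and mek1 (0.798). In deviations they came closest to dad3 (0.881), spd1 (0.843) and gef3 (0.838) and to nbl1 (0.89), fet4 (0.824) and cog5 (0.801). The 95th percentiles for rec8 and moa1 were 0.209 and 0.621 in log2 values and 0.404 and 0.531 in deviations. Between the 4 genes themselves r of the log2 values ran from -0.247 for rec8 with sgo1 to 0.718 for rec11 with moa1. The latter lay below the 95th percentile for rec11 and above that for moa1, whose signal was below background. In deviations rec11 with moa1 had 0.469, and the highest r was 0.73 for rec11 with rec8, also below background.

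The 4 genes lie apart in the genome, with moa1 on chromosome I, rec8 and sgo1 on chromosome II and rec11 on chromosome III by the reference gene table (assembly ASM294v3). Nearest neighbours were looked up by position after the values had been seen. Calls with the shift are common anywhere, at 55.3% of all genes in mis4+ and 56.4% in mis4-367. Beside rec11, the cyclin gene cig1 rose with the shift by 0.24 in mis4+ (adjusted p = 0.0035) and 0.21 in mis4-367 (adjusted p = 0.00795), less than rec11 itself. Beside rec8, which was below background on all arrays, atp7 rose by 0.25 and 0.21 and the replication origin gene orc1 by 0.37 and 0.27. Each had a limma adjusted p of at most 0.0126. Beside moa1, vps29 rose by 0.18 and 0.24 and naa10 fell, at -0.41 and -0.29 (adjusted p of at most 0.00454). Neither neighbour of sgo1, nor the neighbour of rec11 on its other side, was among the measured genes.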

How the data were processed

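The authors deposited 1 intensity per probe set and array on a linear scale; per the submitters' processing notes they used RMA (version not given in the sources used here), a method of background correction, quantile normalization across arrays and probe summary. The method assumes that most signals keep their distribution, and its summaries understate changes of dim probe sets. All 12 columns were matched to samples and 0 were left over. Log2 was taken with no pseudocount. Of 10928 probe sets, 2917 matched 1 gene of the reference table (113 symbols updated by gene ID, 3 matched by name only), 20 named several genes, and 2601 named genes of the other yeast and set the background level, the 95th percentile of their 12-array means. The brightest probe set was used for the 14 genes with several, which left 2899 genes. Precision is limited by the number of arrays.

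One limma 3.58.1 fit (R 4.3.3) of the 4 group means over all 12 arrays gave every comparison, with Benjamini-Hochberg adjustment over all 2899 genes. The script was tested on simulated data. Each strain's cultures were harvested at both temperatures, but no label says that a replicate number marks 1 culture. The deviations of same-numbered arrays correlated above 0.1 in 4 of 18 pairs, and within a strain ran from -0.0869 to 0.0906, so the fit has no block and whether the numbers pair the arrays is not settled. The genes, lists and tests were chosen with earlier results of these data known. Genes named by rule were the 4 genes, their counterparts and mis4, and at most 4 called genes per list and comparison. The 3 most alike genes by each measure were named as well. Outside these rules, other genes were named, among them par1, hhp1, hhp2, rec7, rec27, mcp7, mfm2 and the nearest neighbours. Not all of these were called in the comparisons for which they were named. Of 93 listed genes 90 were measured, and the rest were not analysed here. Alternatives changed the scale, the fit, the block, the filter, the pseudocount (10) or left out 1 array. Promoter and protein sequences were not used here. Figures were drawn with matplotlib 3.10.9.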

Additional observations from a re-analysis of the deposited data

How the results depend on the processing

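The rise of rec11 kept its call in both strains under every alternative run. The other calls of the 4 genes changed in few settings. Quantile normalization gave sgo1 a shift change of 0.033 in mis4-367 (call lost) and rec8 one of -0.31 (call gained), 3 genes called between the strains at 25 °C in place of 18, and crs1 a change of -0.13 in mis4+ in place of a rise; the cause was not tested. With 1 array left out, the shift change in mis4+ ran from 0.098 to 0.19 for moa1 and from 0.077 to 0.24 for sgo1, and that of rec8 in mis4-367 from -0.17 to 0.0086. Fitting only the 2 groups compared, 10 genes were called between the strains at 37 °C in place of 208, and 154 at 25 °C. With 1 array left out these counts ran from 22 to 567 and from 5 to 14, and the count for the difference of responses from 0 to 1. With the replicate block they were 181 at 37 °C, 26 at 25 °C and 0, and no call of the 4 genes changed with it or with cultures as the block. The pseudocount of 10 and the filter on dim genes changed no call of the 4 genes; rec8 and moa1 have no value under the filter. Signals below background limit what can be said of rec8 and moa1. The fit of only the compared groups is the main fit for the difference of responses and was not run apart.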
